A study of Mus musculus with 239 samples.

Results

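The pregnant and virgin cells of the basal gate of the mouse mammary gland were compared across all genes. The members were chosen by Cdh5, the gene of the endothelial adhesion protein VE-cadherin: basal-gate cells at 1 FPKM or more were left out of both groups. FPKM is the number of fragments scaled by transcript length and by depth. This kept 124 of 136 basal-gate cells of a series of 239 cells: 97 pregnant and 27 virgin cells, with 5 pregnant and 7 virgin cells left out. The highest Cdh5 value kept was 0.118 FPKM in the pregnant group and 0 in the virgin group, and the lowest value left out was 37.3 FPKM in the pregnant and 2.50 FPKM in the virgin group. Actg2, Spon2, Fmod, Anxa1 and Slpi were selected on their differences in this same contrast, so their values are a description.

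All mice were FVB females aged 3 to 4 months with no genetic change or treatment given in the labels, and they were either virgin or pregnant at day 12 (12.5 in the protocol). Cells of the fourth glands were dissociated with enzymes, depleted of blood and endothelial cells, and sorted as basal by intermediate CD24 and high CD29, with an antibody to CDH5 in the stain. Single cells were captured on Fluidigm C1 chips, inspected for doublets under a microscope, and sequenced. The labels name no mouse, chip or day, so each group counts as 1 sample, and the spread given is that between cells.

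Basal cells of the mammary gland form the outer layer of ducts and alveoli. Most are myoepithelial: they hold the actin and myosin apparatus of smooth muscle, contract in response to oxytocin to expel milk, and lay down the basement membrane on which the epithelium rests. In pregnancy the gland grows alveoli, and the myoepithelial layer is known to mature towards its contractile role in lactation.

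The basal label was checked against 7 markers (Krt5, Krt14, Krt17, Trp63, Acta2, Myh11, Oxtr). Pregnant cells held between 3 and 7 of them at 1 FPKM or more, with a median of 6, and virgin cells between 1 and 7, with a median of 5. The virgin cell with 1 basal marker was replicate 16, which held 4 of 8 endothelial markers without Cdh5. Virgin replicate 32 held 6 of 8 luminal markers at 10 FPKM or more, beside 6 basal markers. Without these 2 cells, 1088 genes were higher and 88 lower in pregnancy, against 1107 and 77 with them.

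The number of genes found at 1 FPKM or more in a cell differed between the groups and moved with many of the results. It ran from 1190 to 4611 with a median of 2746 in pregnant cells, and from 1150 to 4284 with a median of 1887 in virgin cells. Depth, read from the smallest steps of the FPKM values, had a median of 9.04 M fragments in pregnant cells (1.15 to 11.7) and 5.42 M in virgin cells (2.15 to 39.9). After thinning to 2 M fragments the medians were 2752.5 genes in 96 pregnant cells (1 shallower cell left out) and 1885 genes in 27 virgin cells. Only the 11805 genes with clear steps were thinned, and the others kept their values. The small change in gene number was thus partly fixed in advance, and what depth does cannot be read from it. Spearman's rho of genes per cell with depth was 0.13 over the pregnant and 0.56 over the virgin cells, a description over cells, and the part of depth in the gap cannot be told apart. Virgin depths fell in separate ranges: 19 cells had 2.15 to 9.5 M fragments with a median of 1724 genes, and 8 cells had 13.8 to 39.9 M with a median of 2416.5 genes. No pregnant cell lay in the deeper range.

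**Figure D1:**
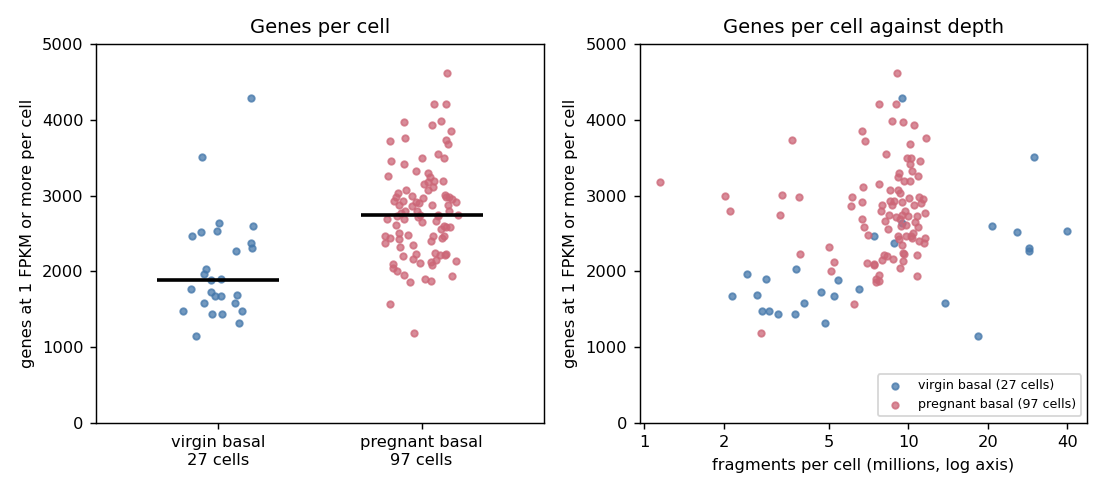
Genes at 1 FPKM or more per cell in the 27 virgin and 97 pregnant basal cells (left; dots are cells, black lines are medians of 1887 and 2746), and the same numbers against fragments per cell in M on a log axis (right). The 8 virgin cells above 12 M fragments lie to the right of every pregnant cell.

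Each gene was given as the pregnant minus the virgin mean of log2(FPKM + 1), called its difference, for the 4074 genes that 25% or more of the cells in 1 of the groups held at 1 FPKM or more. Differences are also given among the 54 pregnant and 8 virgin cells of middle gene number (between 2144 and 2996 genes per cell). Gene numbers were closer there but not equal, with medians of 2677.5 in the pregnant and 2497 in the virgin cells. A further value is the difference at equal genes per cell, from a straight line over log2 genes per cell with the same slope in both groups. Values over all genes cover these 4074 genes, called the genes considered. Gene lists are counted over all their members in the table, also those not considered. Over all cells kept, 1107 genes (27.2%) were higher in pregnancy by at least 1 and 77 (1.89%) were lower, and the median gene differed by 0.53. Among cells of middle gene number, 845 (20.7%) were higher and 395 (9.7%) lower, with a median of 0.19. At equal genes per cell, 427 (10.5%) were higher and 244 (5.99%) lower, with a median of 0.04. In another setting pregnant cells were weighted to the virgin gene numbers, so that pregnant cells with few genes count most: 465 genes (11.4%) were then higher and 421 (10.3%) lower, with a median of -0.05. The weighted pregnant group counts as 8.34 cells, and replicate 90 carries 32.4% of the weight.

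The surplus of higher genes was thus much smaller where genes per cell were set alike or closer. Of the 1107 higher genes, 422 were past 1 at equal genes per cell, 637 were above 0 but under 1, and 48 had the opposite sign. Of the 77 lower genes, 73 were past 1 at equal genes per cell and 53 among cells of middle gene number. Both settings held 350 of the higher and 52 of the lower genes past 1. Genes per cell may itself differ with pregnancy, so a value at equal genes per cell is not a corrected one; whether capture, chip or cell state set the gene number was not tested.

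**Figure D2:**
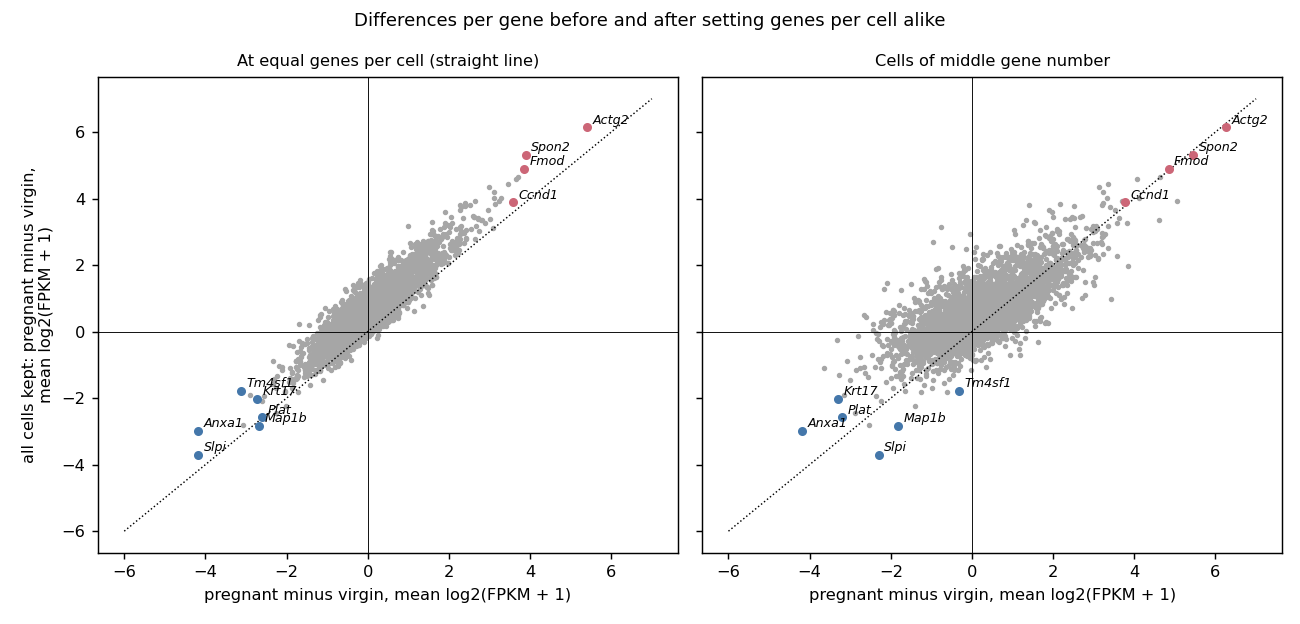
Difference of each of 4074 genes over all cells kept (vertical) against its difference at equal genes per cell (left) and among cells of middle gene number (right), all as mean log2(FPKM + 1); the dotted line marks equal values. Most points of the left panel lie above the dotted line, and Actg2, Spon2, Fmod, Slpi and Anxa1 lie at the ends in that panel.

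The smooth muscle apparatus was higher in pregnant cells. Of 21 listed genes in the table, 20 of them among the genes considered, 18 were higher by at least 1 and 0 lower. Their median was 1.73 against 0.53 over the genes considered, of which 27.2% were higher by at least 1. At equal genes per cell 14 of 21 were past 1, with a median of 1.56 against 0.04, and among cells of middle gene number 13 of 21 were, with a median of 1.82 against 0.19. With the weighting 12 of 21 were, with a median of 1.42 against -0.05. Against the 19 shallower virgin cells 17 of 21 were higher by at least 1, and against the 8 deeper ones 15 of 21. The summed level of the list had a median of 15011 FPKM in pregnant cells (2721 to 40937) and 4911 FPKM in virgin cells (26.9 to 35346).

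Actg2, which encodes the gamma actin of visceral smooth muscle (6:83512905-83536265, minus strand, GRCm38), had the largest difference of all genes. Its lowest, median and highest values were 0, 678 and 3050 FPKM in pregnant cells and 0, 0.0802 and 1972 FPKM in virgin cells. It reached 1 FPKM in 90 of 97 pregnant cells (92.8%, exact Clopper-Pearson 95% interval 85.7 to 97%) and in 8 of 27 virgin cells (29.6%, 13.8 to 50.2%). Intervals cover counting of cells only. Most virgin cells were near 0, but the highest virgin cell lay above the pregnant median, so the groups overlapped. The difference was 6.14 (SD over cells 2.98 pregnant and 3.42 virgin), 5.40 at equal genes per cell and 6.25 among cells of middle gene number. With the weighting it was 5.81. Genes per cell had a median of 2779.5 in pregnant cells with Actg2 and 2220 in those without, and of 2287 and 1763 in virgin cells. The virgin cells were not alike: 3 of the 19 shallower and 5 of the 8 deeper cells reached 1 FPKM, and the difference was 6.93 against the former and 4.28 against the latter.

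The vascular smooth muscle actin Acta2 was found in both groups, and differed in level. Its values ran from 400 over a median of 4910 to 15527 FPKM in pregnant cells, and from 0.105 over 1144 to 8757 FPKM in virgin cells. Every pregnant cell (97 of 97) and 25 of 27 virgin cells had it, the difference was 3.03, and the SD over cells was 0.94 in the pregnant and 3.11 in the virgin group. Pregnant cells were therefore the more uniform group, and virgin cells reached from near 0 to above the pregnant median. The difference was 2.75 at equal genes per cell.

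3 further contractile genes found in most virgin cells differed by 3.09 to 3.39. Myl9, the regulatory light chain of smooth muscle myosin, differed by 3.37 (3.02 at equal genes per cell; 96 of 97 pregnant and 22 of 27 virgin cells). Mylk, the kinase that phosphorylates that chain, differed by 3.39 (2.72), and Cnn1, the actin-binding calponin of smooth muscle, by 3.09 (2.54). The members found in most virgin cells were not all of that size: Smtn, smoothelin, differed by 0.65 (0.27) and the actin crosslinker Actn1 by 0.56 (0.43), and with the weighting by -0.61 and -0.86. Pdlim3, a protein of the actin-anchoring Z lines, was closer to the pattern of Actg2. It was found in 92 of 97 pregnant and 12 of 27 virgin cells, with medians of 256 and 0.417 FPKM. It differed by 4.00 (3.12 at equal genes per cell), but by 1.57 with the weighting.

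**Figure D3:**
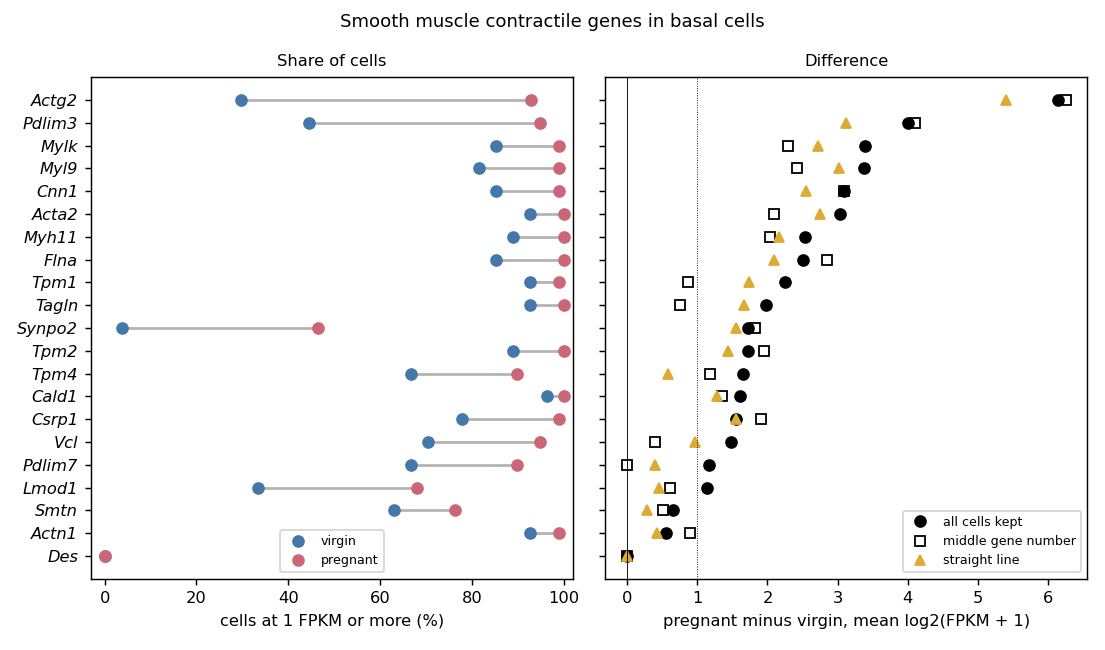
Share of cells at 1 FPKM or more in percent (left; blue virgin, red pregnant) and the pregnant minus virgin difference of mean log2(FPKM + 1) (right; circles all cells kept, squares middle gene number, triangles equal genes per cell) for the 21 smooth muscle contractile genes. Actg2 and Pdlim3 were found in under 50% of virgin and over 90% of pregnant cells, and 18 of the 21 circles lie at 1 or more.

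Many smooth muscle genes carry a CArG box, the site of serum response factor, near their start, so the RefSeq promoters (GRCm38.p6, 250 bases before to 50 after the start) were searched for it. The CArG box of 10 bases reads the same on both strands, which were thus both searched. It was found in 1.63% of 32851 promoters of this length. Counted by gene, as in the sets below, 1.81% of 27025 held one in any of their promoters. Of the genes considered that have an entry, 69 of 3146 (2.19%) held one, as did 25 of 847 genes (2.95%) higher by at least 1 and 0 of 61 lower ones. The contractile genes Actg2, Tagln and Myh11 had no entry and were not searched. Of 18 contractile genes with an entry, 2 held one: Myl9, and Vcl, the gene of vinculin, which links actin to adhesions and differed by 1.48 (0.96 at equal genes per cell and 0.40 among cells of middle gene number). Their promoters are shown because they are the members of the list with the box, which is in capitals. Myl9 lies at chr2:156775214-156775513 and Vcl at chr14:20929148-20929447, both on the plus strand, and the box starts 161 and 227 bases before the start of the gene. A match is a description of the sequence only, and no match speaks only of these letters in this window.
Myl9: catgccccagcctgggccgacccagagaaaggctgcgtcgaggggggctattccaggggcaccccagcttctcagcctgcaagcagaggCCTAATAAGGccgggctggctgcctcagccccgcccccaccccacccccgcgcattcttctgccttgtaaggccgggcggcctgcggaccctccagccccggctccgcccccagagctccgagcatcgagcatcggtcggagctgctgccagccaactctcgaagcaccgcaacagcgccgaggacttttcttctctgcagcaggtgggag
Vcl: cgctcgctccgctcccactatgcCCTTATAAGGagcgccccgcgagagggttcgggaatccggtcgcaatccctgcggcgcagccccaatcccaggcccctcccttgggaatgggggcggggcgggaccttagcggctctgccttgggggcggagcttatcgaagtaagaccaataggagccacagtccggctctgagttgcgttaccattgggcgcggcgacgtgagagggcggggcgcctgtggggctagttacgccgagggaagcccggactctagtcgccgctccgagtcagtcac

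Genes that govern contraction were higher as well. Of 18 listed signalling genes, 14 of them among the genes considered, 11 were higher by at least 1 and 0 lower (median 1.24). At equal genes per cell 9 of 18 were higher (1.03), and with the weighting 6 of 18 (0.62). The shares among all genes considered were 27.2%, 10.5% and 11.4% in that order. Oxtr, the oxytocin receptor, was found in 72 of 97 pregnant and 7 of 27 virgin cells. It ran from 0 over a median of 18.5 to 409 FPKM in pregnant cells, and from 0 over 0.0689 to 52.9 FPKM in virgin cells. The difference was 2.93 (SD 2.80 and 1.85) 2.28 at equal genes per cell, and 0.98 with the weighting. The median pregnant cell was thus within the virgin range, whose highest cell was well below the highest pregnant cell. Genes per cell had a median of 2874 in pregnant cells with Oxtr and 2377 in those without. Virgin cells went the other way, with 1763 and 1895.5.

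Other members were Cav1, which forms caveolae (difference 3.67, 2.97 at equal genes per cell), and Rgs2, a brake on G-protein signalling (3.26, 2.89; 63 of 97 and 4 of 27 cells). Rhoa, the GTPase that sensitises myosin to calcium, differed by 2.24 (1.81). Ppp1r12a differed by 2.25 (1.21) and Rock1 by 1.27 (0.28), but with the weighting they were at -0.22 and -0.43. The transcriptional regulators of contractile genes moved less as a list. Of 10, 2 were higher by at least 1 (median 0.04), and 1 at equal genes per cell. That gene, Nexn, is an actin-binding protein and not a transcription factor, and differed by 2.78 (2.24).

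Genes of the matrix around the cells did not move as 1 group. Of 16 genes of fibrillar collagens and crosslinking, 2 were higher by at least 1 and 0 lower (median -0.005, and -0.14 at equal genes per cell). Of 17 matrix proteases and inhibitors, 3 were higher and 1 lower (median -0.11), and 0 higher and 5 lower with the weighting. Among all genes considered 27.2% were higher and 1.89% lower, and 11.4% and 10.3% with the weighting. Spon2 and Fmod, with Actg2, had the largest differences of all. Spon2 encodes the secreted spondin 2 (5:33198184-33218455, minus strand). It ran from 0 over 274 to 2236 FPKM in pregnant cells and from 0 over 0 to 1016 FPKM in virgin cells, and was found in 86 of 97 and 7 of 27 cells. Its difference was 5.32 (SD 3.08 and 3.04), 3.89 at equal genes per cell and 1.92 with the weighting. Of all the virgin cells, 2 lay above the pregnant median, as the plot of marker genes by cell shows.

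Fmod encodes fibromodulin, a collagen-binding proteoglycan with leucine-rich repeats (1:134037254-134048277, plus strand). It ran from 0 over 103 to 757 FPKM in pregnant cells and from 0 over 0 to 758 FPKM in virgin cells, in 86 of 97 and 4 of 27 cells. The highest cells of both groups were level, but that rests on 1 virgin cell. The other virgin cells with Fmod were at 69.9, 37.5 and 9.79 FPKM, below the pregnant median. The groups thus differed in the share of cells, and level where found rests on few virgin cells. The difference was 4.90 (3.86 at equal genes per cell), 4.71 against the shallower and 5.35 against the deeper virgin cells. With the weighting it was 2.19. Pregnant cells with Fmod had a median of 2832.5 genes and those without 2163.

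Fmod stood out in its family together with decorin. Of 10 small leucine-rich proteoglycans, 5 of them among the genes considered, 3 were higher by at least 1 and 1 lower (median 0.01). The shares among all genes considered were 27.2% and 1.89%. Dcn, decorin, was found in 83 of 97 and 11 of 27 cells and differed by 4.18 (3.10 at equal genes per cell). Prelp, which anchors basement membrane to collagen, was lower by 1.44 in log2 units (difference -1.44, and -2.32 at equal genes per cell, -0.98 against the deeper virgin cells; 37 of 97 and 18 of 27 cells). The pregnant group was thus not higher in the whole family.

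For the next 2 lists, the share of higher genes among all genes considered was 27.2%, with 10.5% at equal genes per cell and 11.4% with the weighting. Of 19 spondins and other matricellular proteins, 10 of them among the genes considered, 8 were higher and 0 lower by at least 1 (median 0.69). At equal genes per cell 8 were higher (median 0.01), and with the weighting 5 (median -0.0038). Beside Spon2 the higher genes held Mgp, an inhibitor of calcification (3.65, 2.29 at equal genes per cell), and Fstl1, a secreted follistatin-like protein (2.57, 1.55). They also held the YAP and serum targets Cyr61 (2.55, 1.38) and Ctgf (2.52, 1.49) and the thrombospondin gene Thbs1 (2.21, 1.38). With the weighting Cyr61 was at 0.48 and Ctgf at 0.14, and among cells of middle gene number Fstl1 was at 0.69. Of 16 basement membrane genes, 12 of them among the genes considered, 9 were higher and 0 lower (median 1.16). Both at equal genes per cell (0.63) and with the weighting (0.56), 6 were higher. Col4a1, a chain of collagen IV, was found in 97 of 97 pregnant and 16 of 27 virgin cells and differed by 3.35 (2.78), though only by 1.33 among cells of middle gene number and 1.46 against the deeper virgin cells. Its partner Col4a2 differed by 2.23 (1.78). The laminin genes Lama1 and Lamb1 differed by 2.77 and 1.89 (2.26 and 1.14 at equal genes per cell). With the weighting Col4a2 was at 0.69 and Lamb1 at 0.44.

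Of 18 genes of cell adhesion to that matrix, 14 of them among the genes considered, 6 were higher by at least 1 and 0 lower. Of all genes considered, 27.2% were higher. The list median was 0.58 beside 0.53 over the genes considered. At equal genes per cell 5 were higher, with a median of 0.05 beside 0.04. The 6 were Zyx of focal adhesions (2.98, 2.33), the kinase-like Ilk (2.87, 1.88), the integrin activator Fermt2 (2.70, 2.22), the Ilk partner Parva (2.24, 1.99), talin Tln1 (1.81, 1.32) and the integrin chain Itga1 (1.18, 0.70). With the weighting Parva was at 0.87 and Tln1 at 0.28. Genes of the mesenchymal list were higher in 6 of 11 and lower in 0 (median 1.74), and higher in 5 at equal genes per cell (0.99). Pdpn, podoplanin of the basal cell surface, was found in every pregnant cell and in 18 of 27 virgin cells and differed by 4.01 (3.29). Ncam1, a homophilic cell adhesion molecule, was found in 69 of 97 pregnant and 1 of 27 virgin cells, at low levels with a pregnant median of 3.55 FPKM, and differed by 2.06 (1.81). Vim, vimentin, differed by 1.74 (0.99).

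**Figure D4:**
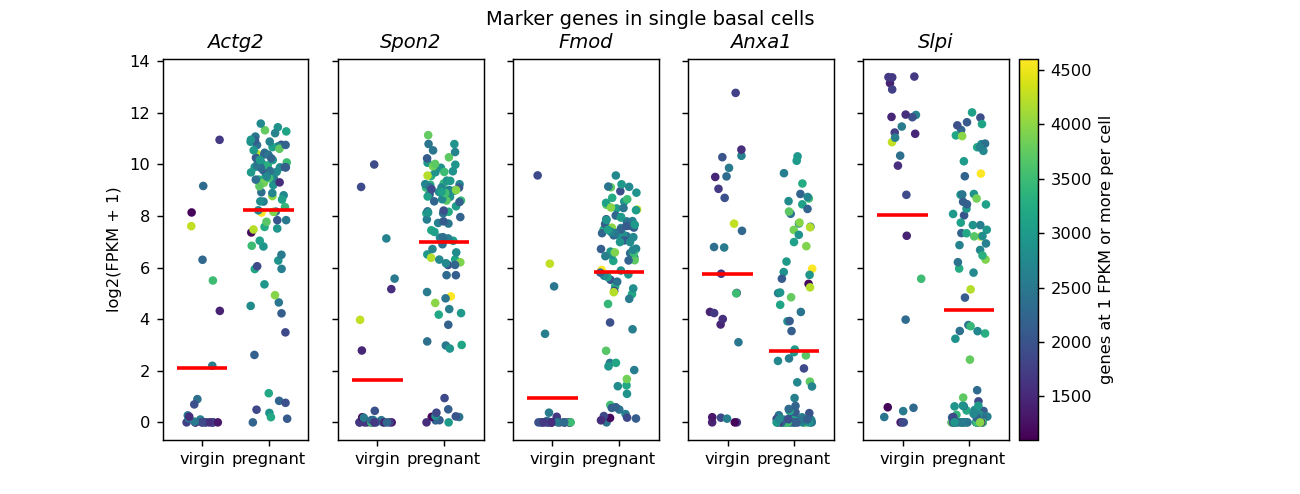
log2(FPKM + 1) of Actg2, Spon2, Fmod, Anxa1 and Slpi in each virgin and pregnant basal cell; dots are cells coloured by genes at 1 FPKM or more per cell, and red lines are group means. Actg2, Spon2 and Fmod are near 0 in most virgin cells, while Anxa1 and Slpi range from 0 to high values in both groups.

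Among the signals that cells send and read, single members of the lists differed. Nrg1, the ERBB ligand neuregulin 1 through which myoepithelial cells act on luminal cells, ran from 0.157 over 996 to 6167 FPKM in pregnant cells and from 0 over 65.5 to 1871 FPKM in virgin cells. It was found in 91 of 97 and 15 of 27 cells, and differed by 4.60 (SD 2.74 and 4.34), 3.66 at equal genes per cell. Virgin cells were split, 12 of 27 being under 1 FPKM. It was the single gene of 12 in the ERBB list to be higher by at least 1.

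Tgfbr3, betaglycan, a co-receptor of TGF-beta, was likewise the single higher gene of 20 in the TGF-beta and BMP list, and differed by 3.83 (3.14). Jag1, a ligand of Notch, was the single one of 13 in the Notch list, and differed by 2.19 (1.70; 0.60 with the weighting). Of all genes considered 27.2% were higher, and 6 of the 11 genes of the IGF axis were among those considered. Of the 11, 3 were higher by at least 1. They are binding proteins: Igfbp2 (4.34, 2.99; 87 of 97 and 5 of 27 cells), Igfbp5 (2.35, 1.74) and Igfbp4 (1.55, 1.36). Igfbp5 was at 0.61 among cells of middle gene number, and with the weighting Igfbp2 was at 1.67 and Igfbp4 at 0.70. Of 21 Wnt pathway genes, 7 of them among the genes considered, 0 were higher and 3 lower. These were Dkk3 (-1.40; 11 of 97 and 11 of 27 cells), Lgr5, a receptor of stem cells in several epithelia (-1.16; 2 of 97 and 8 of 27), and Wnt10a (-1.13; 9 of 97 and 8 of 27). At equal genes per cell Lgr5 was at -0.90 and the others at -1.77 and -1.22. The value of Lgr5 turned on the virgin cells used, with -1.59 against the shallower and -0.15 against the deeper ones, and -0.35 among cells of middle gene number. Wnt10a was at -0.79 there. In the whole Wnt list, 1 gene was higher and 2 lower at equal genes per cell. Among cells of middle gene number 2 were higher and 1 lower. The share of lower genes among all genes considered was 1.89%, 5.99% and 9.7% in these 3 settings, starting with all cells kept.

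Ccnd1, the cyclin that drives entry into the cell cycle, was found in 75 of 97 pregnant and 2 of 27 virgin cells. Its median and highest values were 30.3 and 405 FPKM in pregnant cells and 0 and 13.9 FPKM in virgin cells, and the highest virgin cell lay below the pregnant median. The difference was 3.88 (SD 2.67 and 0.95) and 3.58 at equal genes per cell. Genes per cell had medians of 2767 and 2736.5 in pregnant cells with and without it, a smaller gap than for Actg2 or Fmod. Ccnd2 differed by 2.30 (1.85). Few genes of division itself were past 1: of 15 genes of DNA replication 1 was higher by at least 1 (median 0.19), and of 15 mitosis genes 0 were in either direction (median 0.26). Only 3 of the replication and 1 of the mitosis genes were among the genes considered, so most were too rare to reach 1 easily. At least 3 replication genes were found in 31 of 97 pregnant and 3 of 27 virgin cells, and at least 3 mitosis genes in 13 and 2.

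Genes of energy metabolism were higher too over all cells kept, with smaller differences where genes per cell were set alike or closer. The share of higher genes among all genes considered was 27.2%, with 10.5% at equal genes per cell and 11.4% with the weighting. Of 16 genes of oxidative phosphorylation 14 were higher and 0 lower (median 1.95), against 6 at equal genes per cell (0.81) 6 among cells of middle gene number (0.72) and 4 with the weighting (0.28). Of 14 glycolysis genes 9 were higher (1.39), against 2 at equal genes per cell (0.48). With the weighting 2 were higher and 3 lower (0.23). Examples were Sdhb of complex II (2.87, 1.68), Cox5b of complex IV (2.75, 1.66) and the glycolytic Pgk1 (2.87, 1.74). With the weighting Sdhb was at 0.28 and Cox5b at -0.0079. Outside the lists, Atp5f1 of the ATP synthase differed by 3.94 (3.23) and Slc25a4, the mitochondrial carrier of ADP and ATP, by 3.92 (2.65). Genes of the unfolded protein response and secretion were higher in 9 of 17 (1.12), but in 1 of 17 at equal genes per cell (0.07). Of 18 ribosomal protein genes 0 were past 1 in either direction (median 0.29).

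Genes of the creatine and adenylate kinases, which buffer ATP, went opposite ways. Ckb, brain creatine kinase, was found in 86 of 97 pregnant and 10 of 27 virgin cells, with medians of 163 and 0 FPKM. It differed by 4.65 (3.71 at equal genes per cell), but by 1.96 with the weighting. Ak1, adenylate kinase, was found in 45 of 97 and 21 of 27 cells, with medians of 0.143 and 93 FPKM, and differed by -2.80 (-3.07).

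Of the 15 genes with the largest differences, those in none of the groups above were 1600014C10Rik (4.45, 3.46 at equal genes per cell), an uncharacterised gene found in every pregnant cell and 17 of 27 virgin cells, and Cnn2, a calponin of non-muscle cells (3.86, 2.40). Among the 8 virgin and 54 pregnant cells of middle gene number, further genes were among the 10 most different in a direction. Sepw1 differed there by 3.83 (1.98 over all cells), and Surf2, Cyba, Tpp2, Saraf and Plet1 by -3.65, -3.32, -3.27, -3.07 and -3.01 (-1.11, -0.26, -1.32, -0.88 and -1.46 over all cells). With 8 virgin cells such values rest on few cells.

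**Figure D5:**
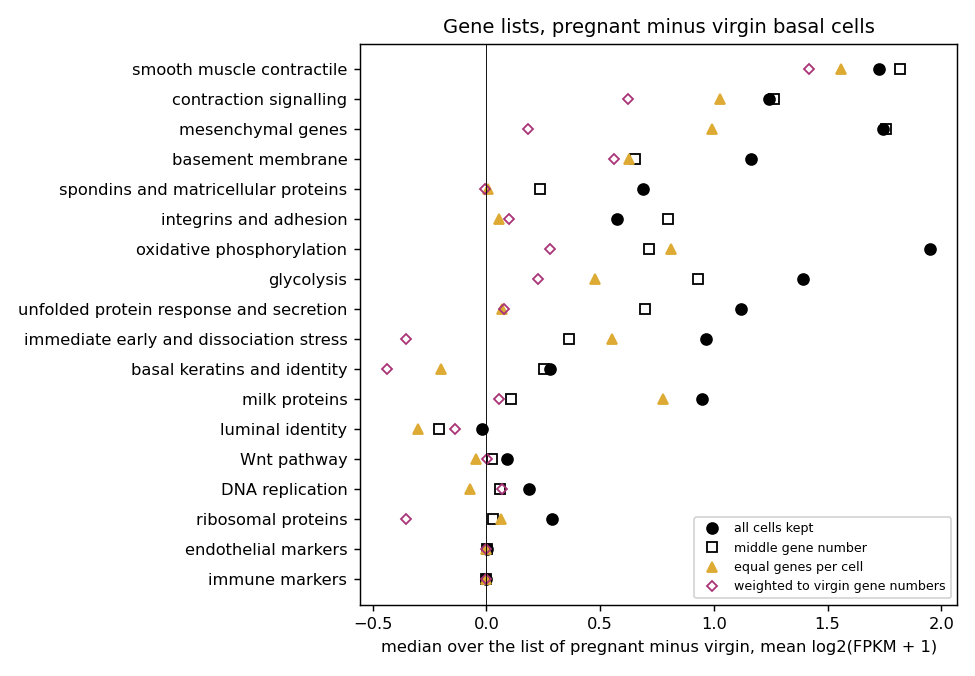
Median over each gene list of the pregnant minus virgin difference of mean log2(FPKM + 1), over all cells kept (circles), among cells of middle gene number (squares) at equal genes per cell (triangles) and with pregnant cells weighted to the virgin gene numbers (diamonds). The contractile list lies at 1.73, 1.82, 1.56 and 1.42 in that order (12 of 21 genes past 1 with the weighting), and oxidative phosphorylation at 1.95, 0.72, 0.81 and 0.28 (4 of 16).

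Fewer genes were lower in pregnancy, and Slpi and Anxa1 had the largest such differences. Slpi encodes a secreted inhibitor of leukocyte proteases (2:164354070-164389095, minus strand). It ran from 0 over 10.6 to 4119 FPKM in pregnant cells and from 0 over 1851 to 10788 FPKM in virgin cells, and was found in 53 of 97 (54.6%, 44.2 to 64.8%) and 20 of 27 cells (74.1%, 53.7 to 88.9%). Both groups thus held cells with none and cells with very much of it, and the spread between cells was large (SD 4.30 and 5.19). The difference was -3.70, and -4.18 at equal genes per cell. It rested largely on the shallower virgin cells: -4.79 against those 19 and -1.11 against the 8 deeper ones, where 5 of 8 cells had Slpi.

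Anxa1, annexin A1, a membrane-binding protein with a role in resolving inflammation (19:20373428-20390944, minus strand), ran from 0 over 0.310 to 1265 FPKM in pregnant cells and from 0 over 53.2 to 6960 FPKM in virgin cells. It was found in 44 of 97 (45.4%, 35.2 to 55.8%) and 21 of 27 cells (77.8%, 57.7 to 91.4%). The difference was -2.99 (SD 3.38 and 3.92) and -4.18 at equal genes per cell, and it was -2.81 against the shallower and -3.41 against the deeper virgin cells. Pregnant cells with Anxa1 had more genes (median 2903.5) than those without (2650), the opposite of the order between the groups. Other annexins did not follow. Of 9, 2 were higher and 1 lower, beside 27.2% and 1.89% of all genes considered. Anxa6 differed by 2.56 (1.18 at equal genes per cell) and Anxa2 by 0.81 (-0.47).

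Krt17, a keratin of basal and stressed epithelium, was found in most cells of both groups (88 of 97 and 26 of 27), with medians of 354 and 1371 FPKM. It differed by -2.02 (SD 3.07 and 3.23), by -2.73 at equal genes per cell, by -1.32 against the shallower and by -3.68 against the deeper virgin cells. Other basal keratins did not share this. Krt14 differed by 0.24 (0.05) with medians of 727 and 625 FPKM, Krt5 by 2.10 (1.16) but by 0.63 against the deeper virgin cells, and Krt15 by 1.63 (0.61, and -0.09 with the weighting). Trp63, the transcription factor of basal identity, differed by 0.31, with -0.19 at equal genes per cell and -1.66 among cells of middle gene number.

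Further lower genes were named by the size of their difference. Map1b, a microtubule-binding protein, was found in 17 of 97 pregnant and 18 of 27 virgin cells and differed by -2.83 (-2.67). Plat, tissue plasminogen activator, was found in 8 of 97 and 13 of 27 cells and differed by -2.58 (-2.60). Pmepa1, an inhibitor of TGF-beta signalling, was found in 75 of 97 and 26 of 27 cells and differed by -2.46 (-2.26). The sodium channel gene Scn7a differed by -2.22 (-2.01), the chloride channel protein Clic4 by -2.07 (-2.60), and the transgelin-like Tagln2 by -1.89 (-2.91). The other lower genes among the 15 with the largest differences were Ehd4 (-1.93, -2.56 at equal genes per cell), Fgg (-1.83, -1.73), Gsn (-1.82, -2.04), Tm4sf1 (-1.79, -3.12) and Fam129b (-1.78, -2.03). Of these, Gsn and Tm4sf1 were at -0.62 and -0.31 among cells of middle gene number, and Fgg at -0.40 with the weighting. Runx1, a transcription factor found in 96 of 97 and 27 of 27 cells, had medians of 61.9 and 124 FPKM and differed by -1.18 (-1.24).

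The summed level of the luminal identity genes had a median of 370 FPKM in pregnant and 321 FPKM in virgin basal cells. Of 14 luminal identity genes 2 were higher by at least 1 and 0 lower (median -0.02), and 0 higher and 1 lower at equal genes per cell. Krt8, a luminal keratin, differed by 1.83 (0.87, and 0.36 among cells of middle gene number) and its partner Krt18 by -0.89 (-2.33), so the pair did not move together. Of 11 milk protein genes, 7 of them among the genes considered, 5 were higher (median 0.95), 2 at equal genes per cell and 0 with the weighting. The shares among all genes considered were 27.2%, 10.5% and 11.4% in that order. Csn1s2a, a casein, was found in 36 of 97 and 4 of 27 cells and differed by 1.37 (1.32). Glycam1 was found in 28 of 97 pregnant cells, with a highest value of 345 FPKM, and in 0 of 27 virgin cells, a count that 11.1% of cells would still allow. The summed milk protein level ranged from 4.46 to 3563 FPKM in pregnant cells and from 0.788 to 15841 FPKM in virgin cells, where virgin replicate 32 had Csn2 at 6147 FPKM. Free casein RNA taken up with cells was not measured, so its part was not tested.

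Genes of dissociation stress are known to respond to enzymatic digestion. Of 19, 9 were higher and 1 lower by at least 1 (median 0.97), and 3 higher and 1 lower at equal genes per cell (0.55). Among all genes considered 27.2% were higher and 1.89% lower, and 10.5% and 5.99% at equal genes per cell. Among cells of middle gene number 8 were higher and 4 lower (0.36), and with the weighting 3 higher and 6 lower (-0.35), so the direction of the median turned there. Atf3 differed by 3.76 (2.30), Btg2 by 3.36 (2.82) and Fosl2 by -1.39 (-1.91). With the weighting Atf3 was at 0.93 and Btg2 at 0.65, and Fosl2 was at -0.19 against the deeper virgin cells. Their summed level ranged from 34 to 14358 FPKM in pregnant and from 86.4 to 6334 FPKM in virgin cells, and their part in the other results was not tested.

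Markers of other cell types had median sums near 0 in both groups for most lists, with single cells far above. None of 14 endothelial markers was past 1 in either direction, and their summed level had a median of 0 FPKM in both groups (highest 66 pregnant and 399 virgin), with Cdh5 held low by the rule. Of 12 immune markers, Cd74 was higher by 1.05 (22 of 97 and 1 of 27 cells), 6 were at 0 in every pregnant and 8 in every virgin cell, and the median sum was 0 FPKM in both. Of 11 fibroblast markers 2 were higher and 1 lower. Their summed levels were 0.0432 to 381 FPKM in pregnant and 0 to 2929 FPKM in virgin cells (medians of 39.7 and 6.68 FPKM). This list was not confined to single cells, since at least 3 of its markers were found in 20 of 97 pregnant and 3 of 27 virgin cells. Of 10 pericyte markers 1 was higher, Rgs5, found in 30 of 97 and 1 of 27 cells with a difference of 1.66 (1.36 at equal genes per cell). The pericyte sum had medians of 0.575 and 0.287 FPKM and reached 508 FPKM in pregnant and 220 FPKM in virgin cells. Pericytes share contractile genes with myoepithelial cells. Of the 10 markers, 5 were at 0 in every pregnant cell and 6 in every virgin cell, and their part in the contractile result was not tested. The summed adipocyte markers reached 3986 FPKM in pregnant and 6812 FPKM in virgin cells, with medians of 0.151 and 0 FPKM. Skeletal muscle markers reached 1408 and 0.396 FPKM, with medians of 0.0786 and 0 FPKM.

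The markers were also read within single cells. All of Actg2, Spon2 and Fmod were at 1 FPKM or more in 77 of 97 pregnant cells (median 2873 genes per cell) and in 1 of 27 virgin cells, which had 4284 genes. None of them was in 1 pregnant and 12 virgin cells, the latter with a median of 1707.5 genes. Both Anxa1 and Slpi were in 24 of 97 pregnant and 17 of 27 virgin cells (medians of 2993.5 and 1763 genes). The patterns were not exclusive, since 22 pregnant cells held all 5 genes.

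Over the 97 pregnant cells, the genes whose levels were most like Actg2 by Spearman's rho among 3821 genes were Acta2 (0.54), Fmod (0.49), Sparc (0.48), Ppia (0.48) and Prdx5 (0.47). For Slpi they were C3 (0.40), Ackr3 (0.39), Dhx36 (0.39), Dst (0.38) and Eif6 (0.38). In 27 virgin cells the genes most like Actg2 were Ccdc82, Taf1a, Erdr1, Rbx1 and Ldhb (0.76 to 0.72), and those most like Slpi were Alpl, Olfr1033, Lmna, Actn1 and Gadd45b (0.65 to 0.54). None of the genes named for the pregnant cells was among those of the virgin cells. The cells of a group share their capture and range of depth, many virgin values are 0, and these correlations are a description.

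The same contrast in the luminal gate, between 48 pregnant and 54 virgin cells with medians of 3604 and 3773 genes, was read for the same 4074 genes. In the luminal gate 302 of all these genes (7.41%) were at least 1 higher in pregnancy and 296 (7.27%) at least 1 lower. Of the 1107 genes higher in basal cells, 142 were higher by at least 1 in luminal cells, 85 lower by at least 1 and 880 were within 1. Of the 77 lower genes, 16 were lower, 7 higher and 54 within 1. Actg2 was found in 5 of 48 pregnant and 2 of 54 virgin luminal cells, and Spon2 in 3 and 1. Anxa1 was found in all luminal cells of both groups, with medians of 454 and 849 FPKM. Slpi was lower there as well, in 15 of 48 pregnant and 34 of 54 virgin cells, a difference of -2.84. Since each group is 1 sample, the difference between gates was not tested.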

How the data were processed

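The FPKM table deposited by the authors holds 18850 genes in 239 cells. Its header names no unit, so FPKM was read from the tools and values. Per the submitters' processing notes, Trimmomatic 0.35, TopHat2 2.0.13 and Cufflinks 2.2.1 were run on mm10 (GRCm38). Which annotation was used, and how multi-mapping reads were treated, is not stated by these sources. A sample was assigned to every column (0 columns lacked one).

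Differences of mean log2(FPKM + 1), with pseudocount 1, were computed in Python 3.11.15 with numpy 2.4.6 and pandas 2.3.3, for genes that 25% or more of the cells in 1 of the groups held at 1 FPKM or more. Cells are not replicates, so no test was made. Only the plain difference and the straight line were tested on simulated cells. These were drawn from that same line with low gene means raised, unlike the many zeros of the data. Depth, thinning, weighting and the cells of middle gene number were not tested in this way. Depth was recovered from the whole steps of low FPKM values: 99.1% of 490262 values under 20 steps, over 11805 genes selected for clear steps, were whole within 0.05 of a step, and transcript lengths of 4399 genes set the scale, with 8.71 M fragments in the median cell (8.38 to 8.76 between quartiles of these genes). Shares have exact Clopper-Pearson 95% intervals for counting error only, and a count of 0 allows 3 cells. Fragments are not independent molecules. Gene coordinates are from GENCODE release M21.

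The members, the 51 gene lists (673 of 677 genes in the table) and the rule for named genes were chosen with earlier results of these data known. The rule names the 5 markers, the 15 largest differences in each direction, the 10 largest among cells of middle gene number, and in each list described up to 6 members with the largest difference and up to 3 the other way, with a few identity genes. The straight line over genes per cell and the split of the virgin cells by depth were added after seeing the data. S100b and Rps27 were chosen after their values were seen.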

Additional observations from a re-analysis of the deposited data

How the results depend on the processing

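No paired analysis was possible because the cell numbers in the labels only name cells. The numbers of genes higher and lower by at least 1 were 1107 and 77. They were 1987 and 158 with pseudocount 0.1, and 297 and 22 with pseudocount 10. They were 465 and 421 with the pregnant cells weighted to the virgin gene numbers, and 427 and 244 at equal genes per cell by the straight line. The weighting rests on few cells: the pregnant group counts as 8.34 cells, and replicate 90, with 1563 genes, carries 32.4% of the weight, since 5 pregnant but 14 virgin cells had under 1900 genes. Without that cell the numbers were 514 and 312. Lower genes alone numbered 45 where a gene had to be in 50% of the cells of either group (fewer genes are considered), 39 with all basal-gate cells, 286 in cells with at least 2000 genes and 395 in the cells of middle gene number. They numbered 277 in cells within the virgin quartiles of gene number and 296 against the virgin cells over 12 M fragments. Higher genes made up 93.5% of genes past 1 over all cells, 73.8% in cells with at least 2000 genes, 68.1% at middle gene number, 63.6% by the straight line and 52.5% with the weighting. The cause of these shifts was not tested.

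Rescaling to equal summed FPKM, or by median ratios, leaving out the Krt18 cells or those set apart by markers, and no filter kept both numbers within 1.5 times. The gap in median genes per cell was 859, and between 580 and 986 under its alternatives. Among named genes past 1 that were followed through every setting, the sign turned with the weighting for Krt15 (-0.093), Cox5b (-0.0079) and Plet1 (1.18). It turned for Vim (-0.38) without the pregnant cell of largest weight, and for Itga1 (-0.087) in cells within the virgin quartiles of gene number. Other members of the contractile and contraction signalling lists past 1 also turned with the weighting. They were Tpm2 (1.72 to -0.63), Lmod1 (1.14 to -0.17), Ppp1r12a (2.25 to -0.22) and Rock1 (1.27 to -0.43). With single cells as the only units, depth and genes per cell limit what a low gene can show.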

Other observations

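The hormone receptors Pgr, Esr1 and Prlr were under 1 FPKM in most basal cells of both groups, unlike Oxtr in pregnant cells. Pgr, the progesterone receptor, was found in 6 of 97 pregnant and 0 of 27 virgin cells, a count that 11.1% of cells would still allow. Esr1, the oestrogen receptor, was found in 8 and 1 cells, and Prlr, the prolactin receptor, in 0 and 1. Tnfrsf11a, the receptor of the RANK ligand that relays progesterone, was found in 34 of 97 and 3 of 27 cells and differed by 1.41, but by 0.54 at equal genes per cell and 0.43 with the pregnant cells weighted to the virgin gene numbers.

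Of 17 junction genes, 10 of them among the genes considered, 3 were higher by at least 1 and 0 lower. Of all genes considered, 27.2% were higher. The list median was 0.16 beside 0.53 over the genes considered, and -0.00088 beside 0.04 at equal genes per cell. Cdh13, a cadherin without a cytoplasmic tail, was found in 70 of 97 and 8 of 27 cells and differed by 2.77 (1.81 at equal genes per cell). Perp, a desmosomal protein, differed by 3.19 (1.98), and Gja1, connexin 43, by 1.71 (1.22), with medians of 179 and 148 FPKM that lay close together. Serpinh1, the collagen chaperone, was found in 82 of 97 and 8 of 27 cells and differed by 2.29 (2.15), and Col14a1 in 76 and 9 cells, by 2.00 (1.00). Among immune-related genes Irf1 differed by 1.85 (1.11) and the chemokine Cxcl14 by -1.51 (-1.95; medians of 25.4 and 54.3 FPKM). With that weighting Perp was at 0.65, Cdh13 at 0.71, Gja1 at 0.27, Col14a1 at 0.59 and Irf1 at 0.01. The calcium-binding S100a1 differed by 2.26 (1.68). Lpl, lipoprotein lipase, was found in 15 of 97 and 13 of 27 cells and differed by -1.17 at equal genes per cell as over all cells.

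Low, widespread values set 2 genes apart. S100b was found in 22 of 27 virgin cells at up to 8.08 FPKM and in 10 of 97 pregnant cells at up to 1.86 FPKM, whereas luminal cells had it in 3 of 54 virgin and 8 of 48 pregnant cells. Rps27, which has near-identical copies among which reads may be split, was found in 25 of 27 virgin and 36 of 97 pregnant basal cells (medians of 6.50 and 0.699 FPKM), and in 17 of 54 and 17 of 48 luminal cells. Virgin basal cells had the fewest genes per cell of the 4 groups and the higher values of both genes.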
